A study of Homo sapiens with 6 samples.

Results

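A set of 10 genes known as direct or sensitive targets of WNT/β-catenin signalling was examined in Huh7 P and Huh7 LR cells: AXIN2, LGR5, NKD1, TBX3, RNF43, ZNRF3, GLUL, NOTUM, SP5 and TCF7. The members were the rows of the deposited table whose gene symbol equals one of these names, 10 of the 26184 genes and loci listed, and each symbol occurred in 1 row. Huh7 is an established human hepatocellular carcinoma cell line. Huh7 P is the untreated parental line at time 0, and Huh7 LR was derived from it by lenvatinib exposure rising from 1 to 20 μM over 10 months. Lenvatinib is a kinase inhibitor whose targets include the receptors of VEGF and FGF. Both lines are labelled as wild-type, each was sequenced as 3 samples that the study's methods describe as independent, and the methods state that the resistant line was kept in 20 μM of the drug, without giving the medium of the cells harvested for RNA. Huh7 LR is 1 derived line, so that an effect of the drug and of separate culture for 10 months cannot be told apart, and p-values measure the spread between samples of these lines only.

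WNT ligands bind Frizzled receptors and the co-receptors LRP5 and LRP6 at the cell surface, which blocks a cytoplasmic destruction complex built on AXIN and APC proteins. β-catenin, the product of CTNNB1, then accumulates, enters the nucleus and binds TCF/LEF factors on its target genes. Several targets are brakes on the same pathway, so their RNA is widely read as a gauge of its output. In the liver the pathway is active around the central vein, where it maintains glutamine synthetase, encoded by GLUL, and it is often switched on by mutation in hepatocellular carcinoma.

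The libraries held between 62738937 and 71427573 counted reads, with overlapping totals in the lines. Levels are given as CPM, counts per 1000000 reads of the library, scaled by edgeR's TMM factors, and the upper limit set by a count of 0, taken as 3 counts, was 0.0418 to 0.0486 CPM (counting error only). Rose, fell and differed refer to adjusted p-values below 0.05 in the quasi-likelihood test of edgeR, run on the 17531 genes and loci with enough counts. A gene was called where that value was also below 0.001 and the change exceeded 2-fold. The hepatocellular label was checked against markers, and all 10 hepatocyte lineage genes were measured, with a summed level of 44225 to 53325 CPM in Huh7 P and 56592 to 59623 CPM in Huh7 LR. Of these 10, 5 rose and GPC3 was called, from 674 to 1547 CPM, while TF did not pass by limma (adjusted p of 0.0689 to 0.169). Over all genes and loci tested, 23.3% rose and 4.43% were called higher. Of 8 fibroblast markers, DCN and THY1 had no counts, and the sums overlapped, with 7.73 to 9.10 CPM in Huh7 P and 7.45 to 11.2 CPM in Huh7 LR. This sum holds opposite changes, since COL1A1 rose (1.28 to 4.59 CPM) and PDGFRA fell (6.25 to 2.92 CPM), and PDGFRB rose (0.808 to 1.44 CPM). Of 6 endothelial markers, CDH5, KDR and TEK had no counts, and the sum, mostly PECAM1, was 39.2 to 47.9 CPM in Huh7 P and 65.7 to 71.7 CPM in Huh7 LR. Both PECAM1 (44 to 68.7 CPM) and VWF (0.0408 to 0.323 CPM) rose. VWF had enough counts to test only through Huh7 LR, and it passed in 7 of 12 alternatives. Among 6 leukocyte genes, HLA-DRA and TYROBP were at 0, and the sum, mostly CD68, was 67.0 to 74.3 CPM in Huh7 P and 46.7 to 53.3 CPM in Huh7 LR. The 5 cholangiocyte markers summed to 236 to 261 CPM in Huh7 P and 199 to 225 CPM in Huh7 LR, mostly SOX9 at 193 CPM in both lines. Among them KRT19 fell from 50.5 to 12 CPM and CFTR rose from 1.02 to 3.24 CPM. The part of these marker differences in the results was not tested.

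TCF/LEF factors recognise short sequences with the core CTTTGAT or CTTTGAA, whose reverse complements are ATCAAAG and TTCAAAG. RefSeq promoters (GRCh38.p14, 250 bases before to 50 bases after each start) were at hand for 4 of the 10 genes, GLUL, RNF43, SP5 and TCF7, in 7 entries. AXIN2, LGR5, NKD1, NOTUM, TBX3 and ZNRF3 had no entry. On either strand, CTTTGAT was present in 2.62% of all 35116 promoters, CTTTGAA in 4.43% and either in 6.86%. SP5, which encodes a zinc finger factor, was the 1 gene of the 4 with a match and had 3. The first lay 148 bases before the start, the next 109 bases and the last 84 bases, and 0.0256% of all promoters held 3 or more matches. The upstream sequences of SP5 and of RNF43 are shown because one carries the matches and the other belongs to a gene that was lower in Huh7 LR. Capitals mark the matches, and bases that overlap an annotated exon were left out.
SP5, chr2:170715087-170715336, plus strand: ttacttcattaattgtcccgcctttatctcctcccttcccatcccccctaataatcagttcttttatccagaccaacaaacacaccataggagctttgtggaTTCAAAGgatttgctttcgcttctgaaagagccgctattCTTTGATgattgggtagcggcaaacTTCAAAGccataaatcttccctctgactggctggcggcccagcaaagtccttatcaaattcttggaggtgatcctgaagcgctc
RNF43, chr17:58417596-58417784, minus strand: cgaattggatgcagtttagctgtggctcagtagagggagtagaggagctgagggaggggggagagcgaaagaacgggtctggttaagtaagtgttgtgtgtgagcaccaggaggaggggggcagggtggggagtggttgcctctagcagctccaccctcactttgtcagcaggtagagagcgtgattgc
A match is a description of the letters alone, and its absence from this window says nothing on binding elsewhere.

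Of the 10 target genes, 9 had enough counts to test. AXIN2, LGR5 and RNF43 fell in Huh7 LR (adjusted p under 0.05), 0 rose, and 6 did not pass. The lower direction at this level comprised 22.4% of all genes and loci tested, the higher direction 23.3%, and either 45.7%. The 3 lower genes among the 9 tested stand beside these shares, and nothing particular to the list is drawn from the count. By edgeR, 0 of the 9 were called past 2-fold, against 1.78% of all tested in the lower direction, 4.43% in the higher and 6.21% in either. DESeq2 also called 0, and 3 of the 9 had an unadjusted p under 0.05 in edgeR. The median log2 change of the 9 genes was -0.05, beside 0.00 for all genes and loci tested. In the 3 lower genes, all 3 Huh7 LR libraries lay below all 3 Huh7 P libraries, a separation found in 27.7% of everything tested (28.2% in the opposite direction, 55.9% in either). In bulk RNA, fewer cells that express a gene and less of its RNA per cell cannot be told apart.

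**Figure D1:**
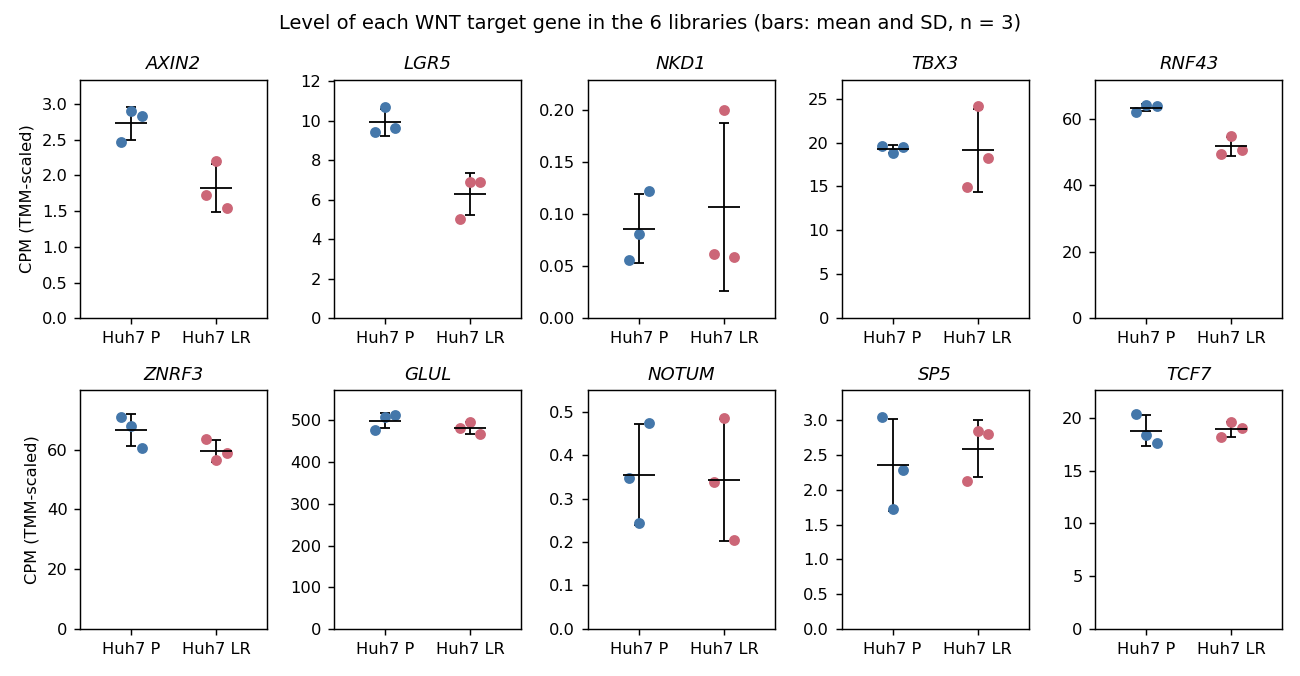
Level of each of the 10 target genes in CPM (y axis from 0, own scale per gene) in the 3 Huh7 P (blue) and 3 Huh7 LR (red) libraries, with the mean and SD as black bars. The lines separate for AXIN2, LGR5 and RNF43 and overlap for the other 7 genes.

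LGR5 (ENSG00000139292, chromosome 12, 71439770 to 71586310, GRCh38) encodes a stem cell receptor that binds R-spondins and so strengthens WNT signals. Its level was 9.45, 10.7 and 9.62 CPM in the Huh7 P libraries and 5.05, 6.91 and 6.90 CPM in the Huh7 LR libraries. Huh7 LR replicate 1 was the lowest, and the highest Huh7 LR library stayed under the lowest Huh7 P library. The mean fell from 9.91 ± 0.658 CPM (mean ± SD of 3) to 6.29 ± 1.07 CPM (mean ± SD of 3), a log2 change of -0.66 (SE 0.14, edgeR adjusted p = 0.00291), or 1.58-fold. The 95% interval ran from -0.96 to -0.35 and so ended short of 2-fold. The difference held without any single library, between -0.73 and -0.52. Among the 20 tested annotated genes nearest to LGR5, 10 to each side, 10 were lower and 3 higher, with a median log2 change of -0.28, so LGR5 lay below the lower quartile of its neighbours, -0.43. The part of the region in its change was not tested. LGR4, the related R-spondin receptor, stood at 315 CPM in Huh7 P and 298 CPM in Huh7 LR (log2 change -0.08, edgeR adjusted p = 0.419).

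AXIN2 (ENSG00000168646, chromosome 17, 65528563 to 65561647) encodes a scaffold of the destruction complex and is the most widely used target of the pathway. It was measured at 2.47, 2.90 and 2.83 CPM in Huh7 P and at 1.73, 2.20 and 1.54 CPM in Huh7 LR. These levels rest on 105 to 185 counts per library, and the lines did not overlap. AXIN2 fell from 2.73 ± 0.233 CPM (mean ± SD of 3) to 1.82 ± 0.339 CPM (mean ± SD of 3), with a log2 change of -0.58 (SE 0.19, edgeR adjusted p = 0.0253). The 95% interval, -0.99 to -0.17, was wide. The difference no longer passed without Huh7 P replicate 2 (adjusted p = 0.088 in edgeR), Huh7 P replicate 3 (0.0714) or Huh7 LR replicate 3 (0.0994), with log2 changes of -0.53, -0.56 and -0.47. Its 20 nearest tested genes had a median log2 change of 0.01, with 4 lower and 6 higher. AC004805.1, which shares 25.2% of the exon bases of AXIN2 on the same strand, had 6 counts in Huh7 LR replicate 3 and 0 in the other libraries. AXIN1, the constitutive relative of AXIN2, was at 29.9 ± 0.871 CPM (mean ± SD of 3) in Huh7 P and 32.1 ± 4.84 CPM (mean ± SD of 3) in Huh7 LR and did not pass (log2 change 0.10, edgeR adjusted p = 0.457).

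RNF43 (ENSG00000108375, chromosome 17, 58352500 to 58417595) and its relative ZNRF3 (ENSG00000183579, chromosome 22, 28883592 to 29057487) encode membrane ubiquitin ligases that remove Frizzled receptors from the cell surface. RNF43 had 62.2, 64.3 and 63.8 CPM in Huh7 P and 49.6, 54.8 and 50.8 CPM in Huh7 LR. The libraries of each line lay close together and the lines did not overlap. The mean fell from 63.5 ± 1.11 CPM (mean ± SD of 3) to 51.7 ± 2.71 CPM (mean ± SD of 3), with a log2 change of -0.30 (95% interval -0.45 to -0.15, edgeR adjusted p = 0.00453), or 1.23-fold. ZNRF3 had 70.9, 67.9 and 60.5 CPM in Huh7 P and 63.7, 56.4 and 58.9 CPM in Huh7 LR. These ranges overlapped, and its log2 change of -0.16 (95% interval -0.33 to 0.02, edgeR adjusted p = 0.139) did not pass. The difference between the changes of RNF43 and ZNRF3 was not tested.

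The RNF43 result depends on how overlapping genes are counted. AC004687.2 (ENSG00000285897) starts at the same position as RNF43, shares 4326 of its exon bases on the same strand (57.6%) and runs on into the next gene, SUPT4H1. It was assigned 48, 83 and 77 reads in Huh7 P, against 692, 245 and 130 in Huh7 LR. All Huh7 LR libraries were above all Huh7 P libraries, and Huh7 LR replicate 1 stood far above the others. In CPM this is 1.06 ± 0.352 (mean ± SD of 3) in Huh7 P and 5.34 ± 4.64 (mean ± SD of 3) in Huh7 LR, with a log2 change of 2.33 (edgeR adjusted p = 0.00426), which was 1.35 without Huh7 LR replicate 1 and did not pass by limma on log2(FPKM + 0.1) with no filter (1.58, adjusted p = 0.0685). With both genes summed, an alternative chosen after seeing the data, the level was 64.5 ± 1.46 CPM (mean ± SD of 3) in Huh7 P and 57.0 ± 3.91 CPM (mean ± SD of 3) in Huh7 LR. The log2 change of the sum was -0.18 (edgeR adjusted p = 0.0642), and the libraries still did not overlap, with 60.2, 58.3 and 52.7 CPM in Huh7 LR against 62.9 to 65.7 CPM in Huh7 P. TSPOAP1-AS1, on the opposite strand, covers 20.3% of the exon bases of RNF43 and was not analysed here. Whether the authors' counting used strand is not given in the sources used here.

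**Figure D2:**
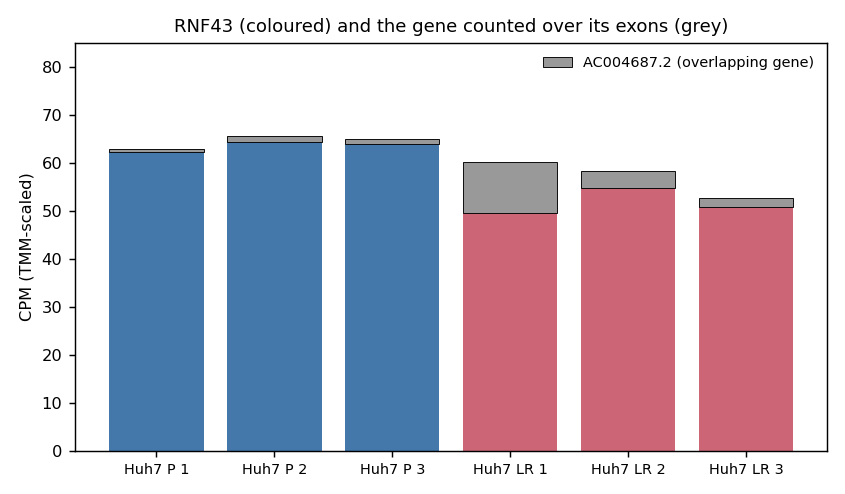
CPM of RNF43 (blue for Huh7 P, red for Huh7 LR) with the CPM of AC004687.2 stacked on it in grey, per library. RNF43 alone stayed at or under 54.8 CPM in Huh7 LR, and with the overlapping gene Huh7 LR replicate 1 reached 60.2 CPM.

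NOTUM and NKD1, 2 further brakes on the pathway, had few reads. NOTUM (ENSG00000185269, chromosome 17, 81952507 to 81961840) encodes a secreted enzyme that strips the lipid from WNT ligands. It was covered by 25, 15 and 31 reads in Huh7 P, against 22, 34 and 14 in Huh7 LR. The ranges overlapped almost fully, and the 95% interval of its log2 change, -1.02 to 0.91, does not exclude a change of about 2-fold in either direction (log2 change -0.05, edgeR adjusted p = 0.934). NKD1 (ENSG00000140807, chromosome 16, 50548330 to 50649249), which encodes an inhibitor that binds Dishevelled, was covered by 4, 5 and 8 reads in Huh7 P and by 4, 14 and 4 reads in Huh7 LR. It did not pass the filter on low counts. Its level of 0.0864 ± 0.0336 CPM (mean ± SD of 3) in Huh7 P and 0.107 ± 0.0807 CPM (mean ± SD of 3) in Huh7 LR gave p = 0.8 in a two-sided exact permutation test, whose smallest possible p is 0.1.

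The transcription factor genes TCF7, SP5 and TBX3 overlapped between the lines. TCF7 (ENSG00000081059, chromosome 5, 134114711 to 134151865) encodes TCF1, a partner of β-catenin on DNA and itself a target. It had 20.4, 18.4 and 17.6 CPM in Huh7 P and 18.2, 19.6 and 19.0 CPM in Huh7 LR. Its 95% interval of -0.19 to 0.20 around a log2 change of 0.01 was narrow (edgeR adjusted p = 0.955). SP5 (ENSG00000204335, chromosome 2, 170715351 to 170718078), whose promoter is printed above, had 3.05, 1.73 and 2.29 CPM in Huh7 P and 2.12, 2.85 and 2.81 CPM in Huh7 LR. Its spread in Huh7 P was as wide as the whole range of both lines, and its log2 change of 0.13 had a 95% interval of -0.36 to 0.63 (edgeR adjusted p = 0.656). SP5 lies among genes that were mostly lower, with 12 of its 20 nearest tested genes lower, 2 higher and a median log2 change of -0.39.

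TBX3 (ENSG00000135111, chromosome 12, 114670254 to 114684164) encodes a T-box repressor linked to β-catenin in liver tumours. It had 19.6, 18.8 and 19.5 CPM in Huh7 P and 14.9, 24.2 and 18.3 CPM in Huh7 LR. The Huh7 LR libraries thus lay on both sides of all Huh7 P libraries, with an SD of 4.68 CPM against 0.399 CPM in Huh7 P. Its log2 change was -0.01 (95% interval -0.33 to 0.31, edgeR adjusted p = 0.948), and it was 0.14 without Huh7 LR replicate 1 and -0.21 without Huh7 LR replicate 2, neither of which passed.

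GLUL (ENSG00000135821, chromosome 1, 182381704 to 182392206), the classical marker of active β-catenin in hepatocytes, was the best measured of the 10 genes, with 31299 to 34712 counts per library. It had 478, 507 and 512 CPM in Huh7 P and 482, 495 and 467 CPM in Huh7 LR. The ranges overlapped, and the log2 change of -0.05 (95% interval -0.20 to 0.09, edgeR adjusted p = 0.56) did not pass. The interval leaves out a fall beyond -0.20 and a rise beyond 0.09 on the log2 scale.

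**Figure D3:**
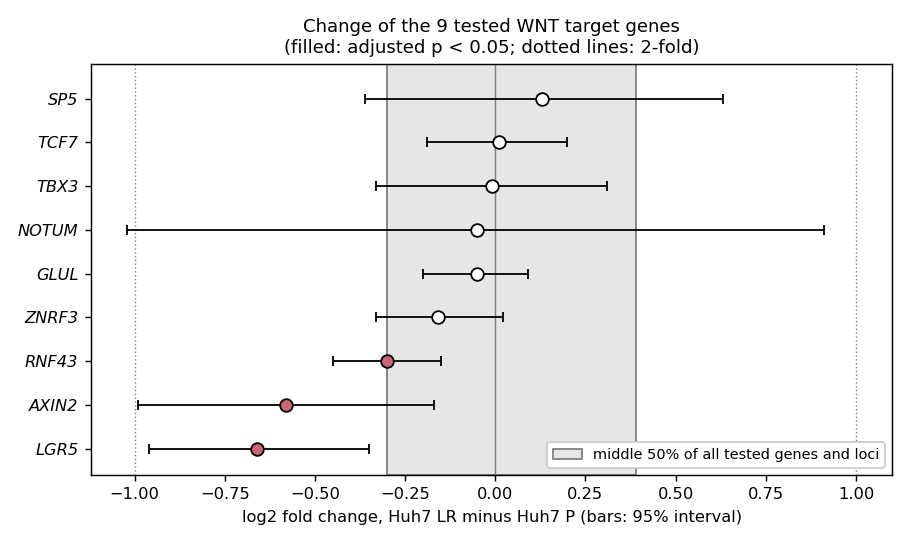
Log2 fold change of the 9 tested target genes, Huh7 LR minus Huh7 P, as points with 95% intervals, filled where the adjusted p was under 0.05, over the middle 50% of all genes and loci tested (grey, -0.30 to 0.39). AXIN2 and LGR5 lie outside the grey band, RNF43 at its edge, and 8 of the 9 intervals stay within 2-fold.

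Per transcript length, in the authors' FPKM, the 10 genes kept one order of means in both lines. GLUL was the most abundant, at 107 ± 2.81 FPKM (mean ± SD of 3) in Huh7 P and 106 ± 2.30 FPKM (mean ± SD of 3) in Huh7 LR. RNF43, ZNRF3, TCF7, TBX3, LGR5, SP5, AXIN2, NOTUM and NKD1 followed, from 11.1 down to 0.00411 FPKM in Huh7 P and from 9.11 down to 0.00551 FPKM in Huh7 LR. The ligase RNF43 stood above its relative ZNRF3, which was at 8.93 FPKM in Huh7 P and 8.17 FPKM in Huh7 LR. In Huh7 LR the lowest RNF43 library, 8.82 FPKM, was barely above the highest ZNRF3 library, 8.81 FPKM. The part of the overlap with AC004687.2 in this order was not tested. The ranges of libraries separated all neighbours in this order except SP5 and AXIN2 in Huh7 P and LGR5 and SP5 in Huh7 LR. LGR5 lay at 2.0 ± 0.129 FPKM (mean ± SD of 3) in Huh7 P, above all SP5 libraries, and at 1.28 ± 0.217 FPKM (mean ± SD of 3) in Huh7 LR, where SP5 had 1.19 ± 0.185 FPKM (mean ± SD of 3).

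**Figure D4:**
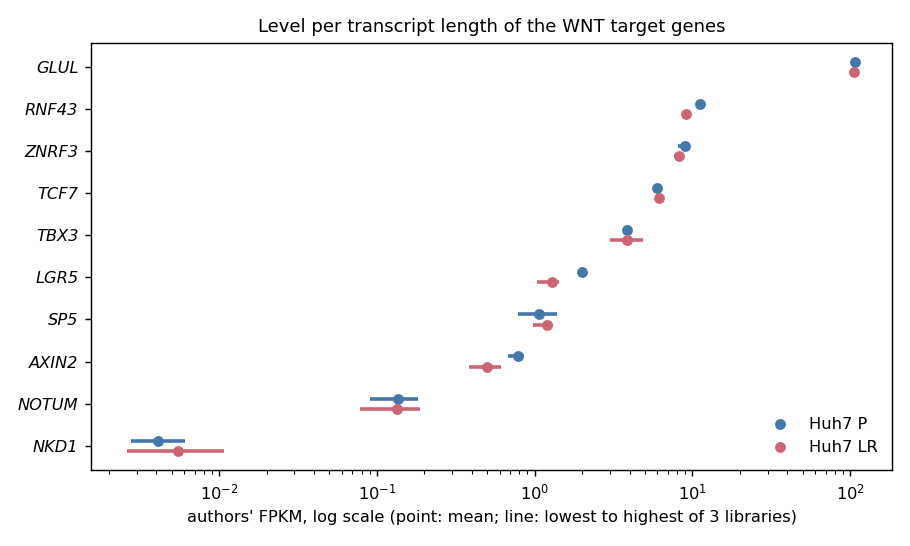
Authors' FPKM of the 10 target genes on a log axis, ordered by the mean in Huh7 P, with points for means and lines from the lowest to the highest of the 3 libraries per line. GLUL lies near 107 FPKM and NKD1 below 0.011 FPKM, and the order of means is the same in Huh7 P (blue) and Huh7 LR (red).

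The rest of the pathway was described with lists grouped by role. Among the factors that act with or against β-catenin in the nucleus, 9 of 13 genes were higher and 1 was lower, with a median log2 change of 0.28. The list mixes co-activators with co-repressors and an inhibitor of β-catenin, and both kinds were among the higher genes. Over all genes and loci 23.3% were higher and 22.4% lower, the shares beside which all list counts stand. Without Huh7 P replicate 2, or without replicate 3, 5 were higher. LEF1, a TCF/LEF family member that is, like TCF7, also a target gene, had 3.21, 3.34 and 3.29 CPM in Huh7 P and 10.1, 10.6 and 11.2 CPM in Huh7 LR. It rose from 3.28 ± 0.0674 CPM (mean ± SD of 3) to 10.6 ± 0.545 CPM (mean ± SD of 3), a log2 change of 1.69 (SE 0.12, edgeR adjusted p = 1.45e-06). Of the other family members, TCF7L1 rose by a log2 change of 0.29 (edgeR adjusted p = 0.022), which did not pass without Huh7 P replicate 2 (0.0722) or replicate 3 (0.0807), and TCF7L2 had 0.10 (adjusted p = 0.321). Per length, LEF1 stood at 1.48 FPKM in Huh7 P and 3.82 FPKM in Huh7 LR, TCF7 at 5.94 and 6.13 FPKM, TCF7L1 at 4.02 and 5.01 FPKM, and TCF7L2 at 12 and 13.3 FPKM. CTNNB1 itself was at 568 ± 14.6 CPM (mean ± SD of 3) in Huh7 P and 611 ± 26.9 CPM (mean ± SD of 3) in Huh7 LR and did not pass (log2 change 0.10, 95% interval -0.04 to 0.25, edgeR adjusted p = 0.233). PYGO1, which encodes a chromatin co-factor of β-catenin, rose with a log2 change of 1.40, called with all libraries but not without Huh7 P replicate 1, 2 or 3 or Huh7 LR replicate 3 (adjusted p of 0.00164 to 0.00268 in edgeR). The Groucho co-repressor genes TLE2 and TLE3 rose, with 0.72 and 0.52, and TLE4 fell, with -0.39.

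Of 19 WNT ligand genes, 7 had enough counts to test, 3 were called higher and 0 were lower, and 4 had no count in any library. Calls in the higher direction made up 4.43% of all genes and loci. Of the 3, WNT8B, with 12, 8 and 8 counts in Huh7 P, passed the filter on low counts only through Huh7 LR. WNT5B, a ligand best known for signalling outside the β-catenin branch, rose from 0.464 ± 0.0767 CPM (mean ± SD of 3) to 5.19 ± 0.780 CPM (mean ± SD of 3), with a log2 change of 3.48 (edgeR adjusted p = 5.85e-07). WNT8B rose from 0.140 ± 0.0241 CPM (mean ± SD of 3) to 1.79 ± 0.169 CPM (mean ± SD of 3), a log2 change of 3.65 (adjusted p = 3.26e-06). WNT11, another ligand of the non-canonical branch, rose from 5.57 ± 0.324 CPM (mean ± SD of 3) to 12 ± 1.31 CPM (mean ± SD of 3), a log2 change of 1.11 (adjusted p = 3.08e-05). The 3 ligands were thus higher in all Huh7 LR libraries, as were 28.2% of all genes and loci, at mean levels of 12 CPM or less. By limma on log2(FPKM + 1), a scale that shrinks low levels, the changes were 1.40 for WNT5B, 0.76 for WNT8B and 0.92 for WNT11, so that WNT8B and WNT11 were short of 2-fold. Of the genes for ligand secretion, PORCN did not pass (log2 change 0.30), and WLS had no reads in Huh7 P and 2 in Huh7 LR. Of the 4 R-spondins, the ligands of LGR5, 3 had no counts and RSPO4 had 5 in Huh7 LR.

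Among receptors and co-receptors, 3 of 13 tested genes were higher and 1 lower, with a median log2 change of -0.05, and the higher count is near the general share of 23.3%. FZD4 rose from 31.6 to 53.5 CPM (log2 change 0.76, edgeR adjusted p = 7.89e-06), and ROR1, a receptor of non-canonical ligands, fell from 25.8 to 13.4 CPM (-0.95, adjusted p = 3.86e-05). FZD8 rose with a log2 change of 1.14 (adjusted p = 0.0204) from 0.550 CPM, and did not pass without Huh7 P replicate 1 (0.0606) or Huh7 LR replicate 3 (0.0939). In the destruction complex and Dishevelled list, 3 of 14 tested genes were higher and 3 lower, with a median of 0.13, and 7 were higher without Huh7 LR replicate 2. APC, the scaffold lost in many colorectal tumours, fell from 36.1 ± 1.67 CPM (mean ± SD of 3) to 18.2 ± 1.37 CPM (mean ± SD of 3), a log2 change of -0.99 (edgeR adjusted p = 6.29e-06), just inside 2-fold. Its relative APC2 rose from 3.99 to 8.90 CPM (1.16, adjusted p = 1.89e-05, and 1.83 by limma on log2(FPKM + 0.1)), and NKD2, the relative of NKD1, fell from 3.89 to 1.64 CPM (-1.25, adjusted p = 1.55e-04). NKD2 was not called without Huh7 P replicate 2 or 3 or Huh7 LR replicate 3 (adjusted p of 0.00135 to 0.00148 in edgeR). BTRC, which encodes the ubiquitin ligase subunit that recognises β-catenin, rose by 0.57 on the log2 scale, and the kinase gene CSNK1A1 fell by 0.29.

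Of 10 tested genes for secreted and membrane inhibitors, 5 were higher and 1 was lower, with a median log2 change of 0.80. Of the 5, SOSTDC1 passed the filter on low counts only through Huh7 LR. DKK1, which encodes a secreted blocker of LRP5 and LRP6 and is itself a target in many cells, had 1.39, 1.99 and 1.58 CPM in Huh7 P and 9.31, 22.3 and 14.4 CPM in Huh7 LR. All Huh7 LR libraries were higher, with a wide spread (log2 change 3.22, SE 0.29, edgeR adjusted p = 8.49e-06). KREMEN1, the receptor of DKK1, rose from 25.6 ± 1.45 CPM (mean ± SD of 3) to 62.6 ± 3.39 CPM (mean ± SD of 3), a log2 change of 1.29 (adjusted p = 6.8e-07). SFRP5, a secreted decoy of WNT ligands, had a log2 change of 1.20 and DKK3 one of 1.05, both called higher. DKK3 was not called without Huh7 LR replicate 1, at 0.93. TRABD2B, a membrane protease that cleaves WNT ligands, was called lower, from 7.66 to 3.30 CPM (log2 change -1.21, edgeR adjusted p = 3.66e-05).

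**Figure D5:**
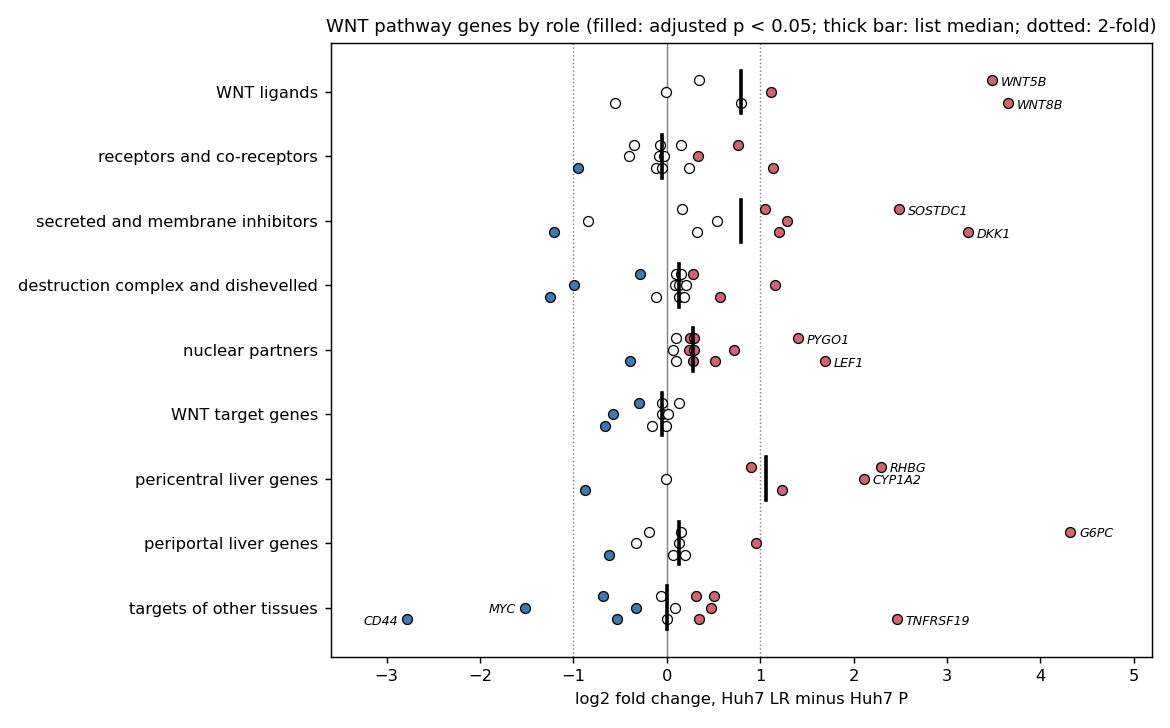
Log2 fold change (Huh7 LR minus Huh7 P) of tested genes in 9 lists by role, filled where the adjusted p was under 0.05 (red higher, blue lower), with the list median as a thick bar, dotted lines at 2-fold and symbols for changes past 1.3. The tested WNT target genes lie between -0.66 and 0.13, while WNT5B, WNT8B, DKK1 and G6PC lie past 3.

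Target genes described in other tissues moved in both directions, with 5 of 13 tested genes higher, 5 lower and a median log2 change of 0.00, and 3 were higher without Huh7 P replicate 1 or without Huh7 LR replicate 3. MYC, a growth-promoting factor with many inputs besides WNT, fell from 86.0 ± 6.13 CPM (mean ± SD of 3) to 30.0 ± 4.10 CPM (mean ± SD of 3), a log2 change of -1.52 (edgeR adjusted p = 1.35e-06). The adhesion receptor gene CD44 fell from 4.84 to 0.708 CPM (-2.78, adjusted p = 4.99e-05, and -3.38 without Huh7 LR replicate 1), and BMP4 and the survivin gene BIRC5 fell by 0.68 and 0.53 on the log2 scale. TNFRSF19, a receptor of the tumour necrosis factor family, rose from 0.637 to 3.49 CPM (log2 change 2.46, adjusted p = 2.20e-04, and 0.0025 without Huh7 P replicate 3), and the ephrin receptor gene EPHB2 rose by a log2 change of 0.51.

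Liver genes of the pericentral zone, where β-catenin is active in normal tissue, moved in both directions. Of 6 tested, 4 were higher and 1 was lower, with a median log2 change of 1.06. Of the 4, CYP1A2 passed the filter on low counts only through Huh7 LR. CYP2E1, a cytochrome P450 gene, did not pass (log2 change -0.01, edgeR adjusted p = 0.982), and CYP1A2 passed in 5 of 12 alternatives. RHBG, an ammonium transporter gene expressed beside GLUL around the central vein, rose from 0.650 ± 0.101 CPM (mean ± SD of 3) to 3.20 ± 0.475 CPM (mean ± SD of 3), a log2 change of 2.29 (edgeR adjusted p = 1.06e-05). OAT, the gene of ornithine aminotransferase, had 103, 113 and 109 CPM in Huh7 P and 206, 273 and 281 CPM in Huh7 LR (1.23, adjusted p = 8.05e-06). ACSS2, which encodes an acetyl-CoA synthetase, rose by a log2 change of 0.90, and the transporter gene SLC22A3 fell by 0.88 on the log2 scale. Of 9 tested periportal genes, 2 were higher and 1 was lower, with a median of 0.13. Of the 2, G6PC passed the filter on low counts only through Huh7 LR. Without Huh7 LR replicate 2, 4 were higher, and without Huh7 LR replicate 1, 2 were lower. The urea cycle gene CPS1 fell from 86.0 to 56.2 CPM (log2 change -0.62, adjusted p = 3.21e-04), and the E-cadherin gene CDH1 rose from 258 to 502 CPM (0.96, adjusted p = 2.97e-06).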

How the data were processed

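RNA-seq of 3 Huh7 P and 3 Huh7 LR samples was analysed, from poly(A)-selected, NEBNext Ultra libraries. The authors deposited 1 table with raw read counts and FPKM values (which correct for gene length and depth) per gene and library. The submitters' processing notes name TopHat2, Cufflinks and DESeq, and list the mouse build mm10, whereas the table has human Ensembl identifiers, and the extraction text describes an insect. The authors' build, annotation and strand setting are not given in the sources used here. All 19974 annotated identifiers are in GENCODE release 29 (GRCh38), which gave coordinates and exon overlaps, and 19910 have the same symbol there. A further 34 lines name no gene and were left out, and 6210 loci without an annotated gene, with 2.86% to 3.35% of the counts, were kept.

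Counts were tested in R 4.3.3 with edgeR 4.0.16 (filterByExpr with minimum count 10 and total 15, TMM, quasi-likelihood test, Benjamini-Hochberg over 17531 genes and loci). The biological coefficient of variation was 12.7%. Intervals are 95%. Alternatives were DESeq2 1.42.0, its size factors, other filters, a replicate block, limma 3.58.1 on log2(FPKM + 0.1) and log2(FPKM + 1), each library left out, and overlapping genes summed, added after seeing the data. Fits were tested on simulated data. Members and lists were chosen with earlier results of these data known. Besides the members, genes named are those of the lists that were called, up to 3 others per list at an adjusted p under 0.05 and a mean of 1 CPM or more in either line, plus CTNNB1, LEF1, TCF7L1, TCF7L2, AXIN1 and APC. PORCN, WLS, RSPO4, LGR4, CYP2E1, marker genes and genes named in the last section fall outside this rule and were chosen after their values were seen, as were the overlapping genes. Figures were drawn with matplotlib 3.10.9.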

Additional observations from a re-analysis of the deposited data

How the results depend on the processing

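Of the 133 values for the 9 tested target genes under the alternatives, 119 kept their direction and their side of the threshold. The exceptions were AXIN2 and RNF43, which lost the difference, and 4 genes near 0 that changed sign. AXIN2 did not pass without the libraries named above, nor by limma on log2(FPKM + 0.1) with no filter (adjusted p = 0.0805). RNF43 lost it with overlapping genes summed (adjusted p = 0.0642). The count of lower target genes lay between 2 and 3 and that of higher ones was 0 in all alternatives. TBX3 was at 0.00 with at least 10 counts in every library. Leaving out 1 library in turn gave log2 changes of -0.21 to 0.14 for TBX3, -0.38 to 0.21 for NOTUM, -0.04 to 0.36 for SP5, -0.04 to 0.07 for TCF7 and -0.01 to 0.20 for AXIN1. The causes were not tested.

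Of 550 values for the 37 other genes named by the rule above, 544 kept their direction and side of the 0.05 threshold. Genes named outside that rule are not in this tally. Of 364 counts by list 352 stayed within 1.5 times. The number of higher receptors was 1, and that of higher targets of other tissues 3, by limma on log2(FPKM + 0.1) with no filter. The number of higher periportal genes was 1 with at least 10 counts in every library and by limma on log2(FPKM + 0.1) or log2(FPKM + 1). Without 1 library in turn, 3 to 7 genes of the destruction complex, 5 to 9 nuclear partners, 3 to 5 targets of other tissues and 2 to 4 periportal genes were higher, and 1 to 2 periportal genes were lower. Over all genes, 776 were called higher and 312 lower in edgeR, 268 and 84 by limma on log2(FPKM + 1), and 353 and 120 by limma on log2(FPKM + 0.1) with no filter. Of the 17 pathway genes called, 0 lost the call in the other count-based alternatives that kept all libraries, except that WNT8B was not tested with at least 10 counts in every library, 4 lost it without 1 library (DKK3, NKD2, PYGO1 and TNFRSF19, named above) and 12 in a limma fit. By limma on log2(FPKM + 1), which shrinks the changes of low genes, the log2 change was -0.25 for AXIN2, -0.40 for LGR5, 0.95 for LEF1, 0.97 for RHBG, 0.71 for TNFRSF19, 0.80 for DKK3 and SFRP5, 0.89 for APC2, -0.48 for TRABD2B, -0.66 for NKD2, -0.92 for CD44 and 2.22 for DKK1. With no filter, limma on log2(FPKM + 0.1) gave PYGO1 an adjusted p of 0.0114.

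The sources used here do not say whether same-numbered samples of Huh7 P and Huh7 LR were handled together. Deviations of same-numbered samples correlated at 0.029 to 0.0317, below 0.1, though each sample correlated best with its own number, a hint from the data and not the design. With a replicate block, 783 genes were called higher and 316 lower, and 3 target genes were lower. NOTUM and NKD1 had few reads in every library. NKD1 had a log2 change of 0.31 with no filter (edgeR adjusted p = 0.837).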

Other observations

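A few genes of the lists with low counts passed the test without meeting the rule for named genes, and they were chosen here after their values were seen. SOSTDC1, which encodes a secreted inhibitor of WNT and BMP signals, had 0.0697, 0.146 and 0.0765 CPM in Huh7 P and 0.568, 0.714 and 0.366 CPM in Huh7 LR (log2 change 2.49, edgeR adjusted p = 0.00153, and 1.26 by limma on log2(FPKM + 0.1) with no filter). CYP1A2, a pericentral cytochrome P450 gene, had 0.0697, 0.130 and 0 CPM in Huh7 P and 0.368, 0.300 and 0.205 CPM in Huh7 LR (2.11, adjusted p = 0.036). CYP1A2 did not pass in 7 of 12 alternatives, which were DESeq2 (0.0598), no filter (0.0588) and leaving out any library except Huh7 P replicate 2 (0.0616 to 0.106). Its log2 change was 2.96 without Huh7 P replicate 2, 1.54 without Huh7 P replicate 3 and 0.71 by limma on log2(FPKM + 0.1) with no filter. G6PC, the gene of glucose-6-phosphatase in the periportal list, was at 0, 0.146 and 0 CPM in Huh7 P and 1.38, 0.50 and 0.997 CPM in Huh7 LR (4.32, adjusted p = 0.00173, and 1.81 by the same limma fit). All Huh7 P reads of G6PC came from replicate 2, and without it the fitted change has no fixed size. In these 3 genes all Huh7 LR libraries lay above all Huh7 P libraries. Each had fewer than 10 counts in every Huh7 P library and passed the filter on low counts only through Huh7 LR. This separation was thus fixed by the filter, and nothing is drawn from it.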
